A study of Drosophila melanogaster with 3 samples.

Results

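The genes examined here are 47 Drosophila melanogaster genes of axon guidance and neuronal adhesion, out of 13945 protein-coding genes on the 6 chromosome arms. They were chosen by symbol, and a croc-eGFP peak was counted for one of them where its summit lay in the gene body, or where the nearest protein-coding transcription start site (TSS) was that gene's and within 10 kb of the summit. Of the 3644 peaks on the arms in the conservative list of the series, 66 (1.81%) belonged to these genes, and 22 of the 47 genes had at least 1. The study mapped the genomic positions of crocodile (croc), a forkhead-domain transcription factor required for the embryonic head, by chromatin immunoprecipitation and sequencing (ChIP-seq). The flies were transgenic, of the strain croc-GFP, and made a fusion of croc with eGFP, an enhanced green fluorescent protein; the precipitating antibody was directed against GFP. Chromatin came from whole embryos aged 0 to 18 h and was sonicated to 200 to 800 bp. The labels give 3 biological replicates of this 1 group, and control libraries were not analysed here. The tagged protein is a transgene product, and every library mixed all cell types and all ages in that range, so a site bound in few cells and a site bound weakly in many cells cannot be told apart.

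Growing axons steer by secreted and membrane-bound cues, and each cue acts through receptors on the growth cone that signal to the actin cytoskeleton. In the fly ventral nerve cord, Netrins draw axons toward the midline through Frazzled, while Slit repels them through the Robo receptors. Semaphorins act through Plexins, and homophilic or paired surface proteins such as fasciclins, teneurins and Dscams let axons select their partners. Many of these genes are long and have large introns, which in flies often hold regulatory elements.

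The sequences at the strongest conservative summit of 6 of these genes are given to show what the positions look like at base level. They are the 6 genes with the strongest peaks outside 1 chromosome arm, whose sequences are not printed. Each is the 101 bp centred on the summit, plus strand of dm6, read from the Release 6 reference sequence. Capitals mark any of 4 forkhead words on either strand: TATTTAC and its variant TATTTAT, then TGTTTAC and its variant TGTTTAT. A window with several of these words counted once. The windows are chr4:1027242-1027342 (PlexA), chrX:14627549-14627649 (NetA), chr2L:8575092-8575192 (Sema1a), chrX:12202309-12202409 (Ten-a), chr3L:1032736-1032836 (trio) and chr2L:18325270-18325370 (Fas3).
PlexA: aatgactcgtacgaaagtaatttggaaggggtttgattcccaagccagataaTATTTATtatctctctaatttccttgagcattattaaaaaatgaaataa
NetA: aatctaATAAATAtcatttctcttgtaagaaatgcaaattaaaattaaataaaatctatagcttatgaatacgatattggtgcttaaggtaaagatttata
Sema1a: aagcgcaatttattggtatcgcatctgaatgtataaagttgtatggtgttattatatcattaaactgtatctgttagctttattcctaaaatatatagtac
Ten-a: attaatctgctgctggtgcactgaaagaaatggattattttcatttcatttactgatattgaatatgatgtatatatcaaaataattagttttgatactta
trio: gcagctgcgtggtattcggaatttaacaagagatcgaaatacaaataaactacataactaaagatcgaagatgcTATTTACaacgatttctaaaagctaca
Fas3: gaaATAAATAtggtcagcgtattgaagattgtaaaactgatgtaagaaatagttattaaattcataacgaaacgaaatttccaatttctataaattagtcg

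These windows were AT-rich, with between 66.3% (trio) and 79.2% (NetA) A or T. PlexA, NetA, trio and Fas3 each held 1 forkhead word, and Sema1a and Ten-a held none. The PlexA word began 2 bp to the right of the summit and the trio word 24 bp to its right. The NetA and Fas3 words lay on the minus strand near the left edge, beginning 44 and 47 bp from the summit. The strongest summits of unc-5 (signal 487.8) and fra (signal 439.4), which lie among the strongest of all members and are not printed, held no forkhead word. Over all 66 member summits 24.2% held one, beside 23.6% of other conservative summits and 13.3% of all 101-bp windows of the 6 arms. The windows of the arms were not matched for AT content. Windows 500 bp to the left of the member summits held a word in 27.3% of cases, and those to the right in 12.1%.

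The first comparison asked how many of the 47 genes had a peak, beside all genes and beside genes of like length. The 22 genes with a peak made up 46.8% of the members (exact 95% binomial interval 32.1 to 61.9%), against 17.2% of all protein-coding genes in the same list. The members were much longer than other genes, with a median of 36.6 kb against 2.16 kb. A longer gene body gives the rule more sequence in which a summit can fall. Among genes of at least 20 kb, 18 of 34 members had a peak, and the share over all genes of that length was 49.5%. If each member had a peak as often as the other genes of its length class, 21.0 members would have one. The count of members with a peak thus lay close to that of genes of like length. By class, none of 1 member under 5 kb, 4 of 12 from 5 to 20 kb, 7 of 18 from 20 to 50 kb and 11 of 16 of 50 kb and over had a peak. The other genes of these classes had one in 11.3%, 28.6%, 45.9% and 57.4% of cases, each inside the member interval. No test was made of these shares.

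**Figure D1:**
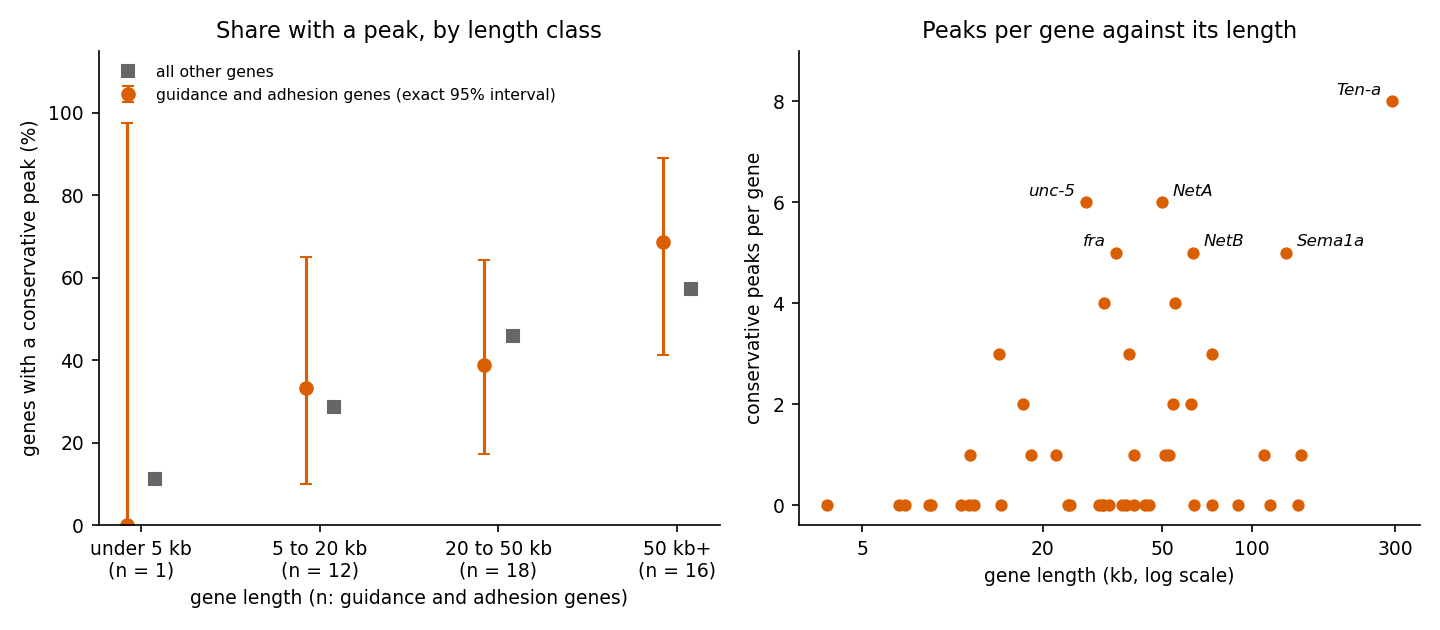
Left, percent of genes with at least 1 conservative peak in 4 classes of gene length, for the 47 guidance and adhesion genes (points, with exact 95% binomial intervals) and all other protein-coding genes (squares). Right, conservative peaks per gene against gene length in kb on a log axis, each point 1 of the 47 genes. The squares lie inside all 4 intervals, and Ten-a, the longest gene at 291.5 kb, has the most peaks, 8.

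The second comparison asked how far the count repeated between replicates. In the thresholded lists of replicates 1, 2 and 3, respectively 23, 17 and 15 members had a peak, which is a mean of 18.3 ± 4.16 (SD, n = 3). The share over all genes was 16.1% in replicate 1, 13.4% in replicate 2 and 10.6% in replicate 3, so the members' counts and the lists' sizes fell in the same order. Member peaks numbered 53, 35 and 25, which was 1.66%, 1.45% and 1.38% of the peaks on the arms in each list. In the series' 3 further lists with the same kind of threshold, 21, 24 and 22 members had a peak, beside 14.7%, 15.9% and 15.6% of all genes. The 13 genes with a peak in all 3 replicate lists were robo2, NetA, NetB, fra, unc-5, Sema1a, PlexA, drl, Ten-a, haf, Fas3, Ptp10D and trio. A further 4 genes (dnt, Con, Fas2 and Nrg) had a peak in a replicate list and none in the conservative list. Conversely, caps and Ptp99A had a conservative peak and none in any replicate list. No thresholded list held a peak for the remaining 21 genes. The shares of all genes, and of genes of like length, with a peak in all 3 replicate lists or in no list were not taken. The counts of 13 and 21 are therefore no trait of the members.

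**Figure D2:**
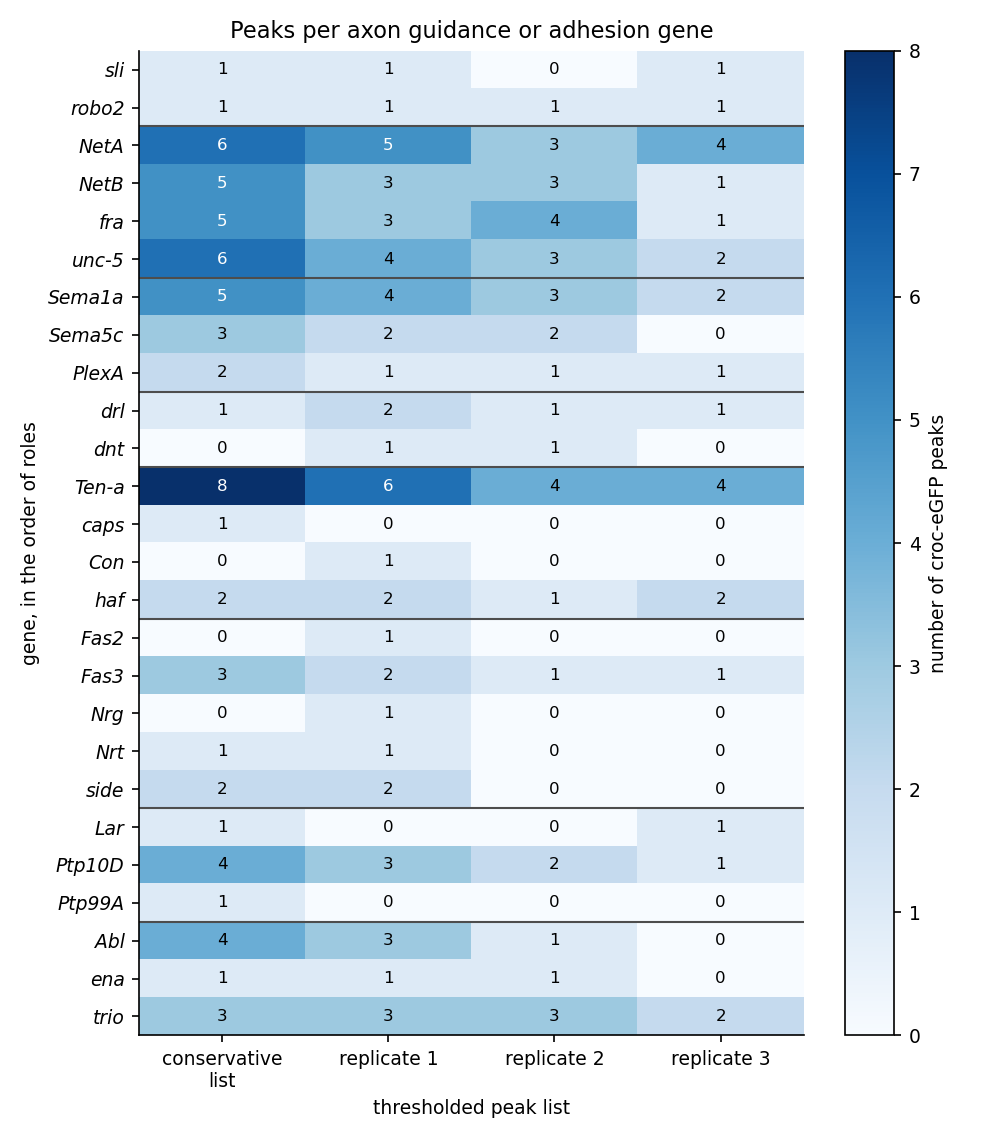
Number of peaks (colour and digits) per gene in the conservative list and in the thresholded list of each replicate, for the 26 genes with a peak in at least 1 of them; lines separate the roles. NetA, fra, unc-5, Sema1a and Ten-a carry several peaks in most lists, while side, Nrt, Con, Fas2 and Nrg carry theirs in replicate 1 and in neither of the other replicates.

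The sharing of single peaks between the lists was counted next. The conservative list and the replicate lists come from the same 3 libraries, so sharing between them is no independent repeat. Of the 66 peaks, 21 (31.8%, exact 95% binomial interval 20.9 to 44.4%) had a summit within 250 bp in all 3 replicate lists, 23 in a pair of them, 12 in 1 and 10 in none. Among all other conservative peaks, 43.8% were shared with all 3, and 41.3% among peaks of other genes of at least 20 kb. Both values lay inside the member interval. By replicate, 53 member peaks had a partner in replicate 1, 41 in replicate 2 and 27 in replicate 3. Leaving out replicate 3, so that a peak had to be shared with the other replicates alone, gave 59.1%. A match in fewer lists can only keep or raise the share. Among the stronger 50% of the list the share for all 3 was 54.5%. Neither share was taken for other peaks. Among members, 13 kept a conservative peak when only peaks shared with all 3 replicates were used. The count was 13 when peaks had to be shared with replicates 2 and 3, and 14 with replicates 1 and 3. The share over all genes was not taken under these rules.

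Some of these peaks were close neighbours of a stronger one. A summit of higher signal lay within 1 median peak width, 384 bp, of 12 of the 66 peaks (18.2%). The share was 12.2% among other peaks and 12.2% among peaks of other genes of at least 20 kb. The 12 member peaks had signals from 2.19 to 86.97. The scale of the signal, the peak caller's own value, is not given, and here it served to rank peaks within a list. After their removal 54 peaks remained, and all 22 genes still had at least 1. Without these neighbours the count was 6 in place of 8 at Ten-a, 3 in place of 5 at NetB and 4 in place of 6 at unc-5. It was lower by 1 at NetA (5 left), fra (4), Abl (3), Sema5c (2), Fas3 (2) and PlexA (1).

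The Netrin system had a peak in all 4 of its genes and 22 of the 66 peaks, the most of any role by this rule. This lead did not hold where peaks were counted by the nearest TSS within 10 kb only: NetB then had 2 peaks, unc-5 5, and NetA and fra 0, which made 7 peaks, as many as the semaphorins and plexins had. NetA and NetB (FBgn0015773 and FBgn0015774) encode the secreted Netrins, neighbours on the X chromosome. NetA (X, 14604012 to 14653928, minus strand, 49.9 kb) had 6 conservative peaks and 5, 3 and 4 peaks in replicates 1, 2 and 3. All 6 lay in introns, and 4 of them, a close neighbour of a stronger one included, were shared with all 3 replicates. The strongest had a signal of 495.5, above 89.1% of the list, and ranked above 98.5%, 96.7% and 98.3% of the ranked peaks of replicates 1, 2 and 3. It lay 26235 bp from the nearest NetA TSS in a gap of 31254 bp between exons. The next, of signal 430.2, was likewise shared with all 3. NetB (X, 14686038 to 14749376, minus strand, 63.3 kb) had 5 conservative peaks and 3, 3 and 1 in the replicates. Its strongest peak, with a signal of 237.3, and a close neighbour of it were the 2 member peaks in an exon outside the coding sequence. The NetB peak shared with all 3 replicates lay in an intron and had a signal of 175.8. Neither Netrin gene had a peak within 500 bp of a TSS.

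The receptors of this system were also among the genes with the most peaks. Frazzled (fra, FBgn0011592), the attractive Netrin receptor of the DCC family, spans 35.1 kb on arm 2R (12529053 to 12564184, plus strand). It had 5 conservative peaks, all in introns, and 3, 4 and 1 in replicates 1, 2 and 3. Its strongest peak, shared with all 3 replicates, had a signal of 439.4, above 86.7% of the list. The repulsive Netrin receptor unc-5 (FBgn0034013; 2R, 15340472 to 15368300, plus strand, 27.8 kb) had 6 conservative peaks and 4, 3 and 2 in the replicates. Its strongest peak was a promoter peak, 174 bp from an internal TSS, with a signal of 487.8, and it ranked above 98.6%, 97.0% and 98.6% of the ranked peaks of replicates 1, 2 and 3. Another, with a signal of 248.6, lay 800 bp before the gene. In the 3 replicates every Netrin gene had a peak, and replicate 3 had the lowest count at NetB, fra and unc-5. Of the other genes within 1.5-fold of the length of unc-5, 8 of 657 had as many peaks or more, and the counts were 13 of 412 for NetA, 21 of 561 for fra and 25 of 317 for NetB. For Ten-a and Sema1a, which also had 5 or more peaks, the counts were 1 of 7 (14.3%) and 17 of 101 (16.8%). These counts were made after the peaks per gene had been seen, and include the close neighbours above. They are given for the 6 genes with 5 or more peaks only.

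**Figure D3:**
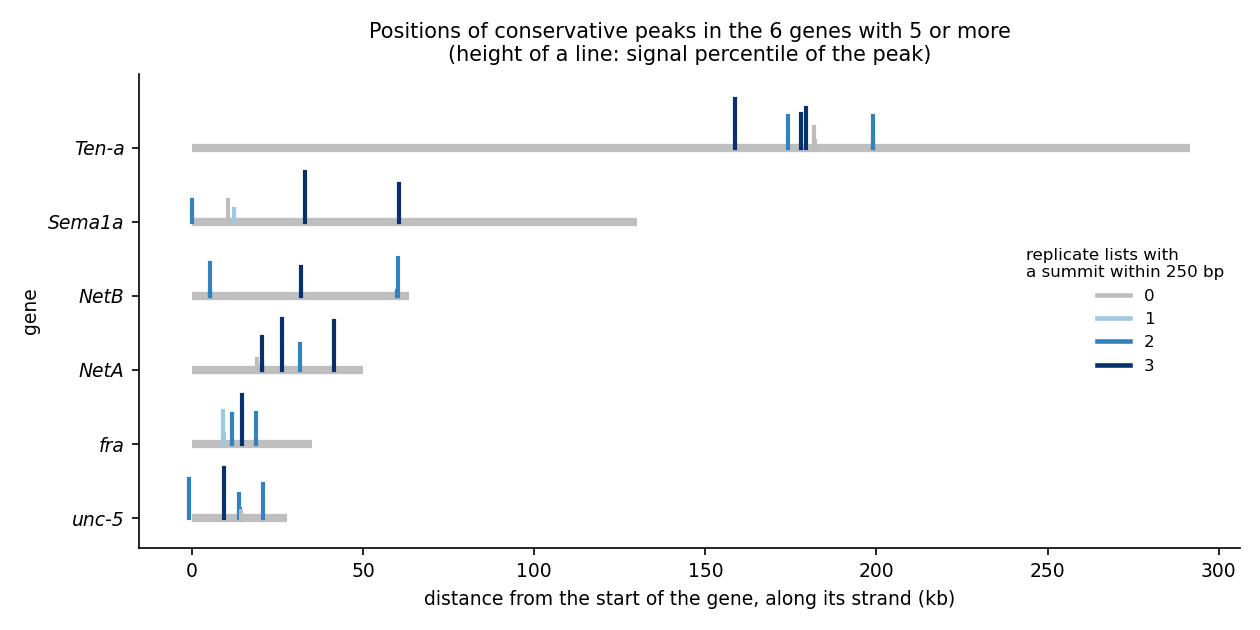
Positions of conservative peaks along the 6 genes with 5 or more, as distance in kb from the start of the gene along its strand; the height of each line is the signal percentile and its colour the number of replicate lists with a summit within 250 bp. The peaks of NetA lie 18987 to 41446 bp from its start and those of fra 9202 to 18643 bp. Those of Ten-a, 291.5 kb long, begin 158661 bp from its start, but lie 1439 to 12707 bp from the nearest of its 5 TSSs.

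In the Slit and Robo system, 2 of 6 genes had a peak, 1 each. Slit (sli), the midline repellent, had an intronic peak with a signal of 240.1 that was shared with replicates 1 and 3. The receptor gene robo2 had an intergenic peak with a signal of 201.0, shared with all 3 replicates. Its summit was the farthest from a TSS among the peaks counted by distance alone, at 2490 bp. The nearest peak left out by the 10 kb limit, outside any body, was 15107 bp from the TSS of caps, with a signal of 129.5. No conservative peak was counted for robo1, robo3, the Robo-sorting gene comm, or kuz, which encodes a metalloprotease.

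Among semaphorins and plexins, 3 of 7 genes had 10 peaks. Sema1a (FBgn0011259; 2L, 8542147 to 8672041, plus strand, 129.9 kb), a transmembrane semaphorin that acts as ligand and receptor, had 5 conservative peaks and 4, 3 and 2 in replicates 1, 2 and 3. Its strongest peak, with a signal of 441.1, lay 31812 bp from the nearest TSS in a gap of 66730 bp between exons, the longest gap that held a member peak. It ranked above 98.1%, 96.7% and 97.5% of the ranked peaks of the 3 replicates. A promoter peak 80 bp from its start, of signal 145.1, was shared with replicates 1 and 2. PlexA (FBgn0025741; 4, 1009895 to 1027101, minus strand, 17.2 kb), the receptor of Sema1a, had the strongest peak of all members, with a signal of 513.9. That promoter peak lay 191 bp from the TSS, above 90.0% of the conservative list, and ranked above 99.0%, 96.7% and 97.4% of the ranked peaks of replicates 1, 2 and 3. The other PlexA peak, 391 bp from the TSS and with a signal of 5.94, had the stronger summit within 384 bp. Sema5c, which encodes a transmembrane semaphorin, had 3 peaks, of which none was shared with replicate 3. Neither Sema1b, Sema2a, Sema2b nor PlexB had a peak.

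One of 5 Ryk and Eph genes had a conservative peak. It was drl, the Wnt5 receptor gene that routes axons across the anterior commissure, with an intronic summit of signal 216.7 shared with all 3 replicates. Its relative dnt had 1 peak in replicate 1 and 1 in replicate 2 without a conservative one, and Drl-2, Eph and Ephrin had none. A summit shared with all 3 replicates lay only 168 bp beyond the end of Drl-2, with a signal of 214.1. It was not counted, since the nearest TSS, 5422 bp away, belonged to CG13324.

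Teneurins and leucine-rich repeat proteins had 11 peaks in 3 of 6 genes. Ten-a (FBgn0267001; X, 12043698 to 12335214, plus strand), a teneurin that matches synaptic partners, had the most peaks of all members, 8, with 6, 4 and 4 in replicates 1, 2 and 3. Every one lay in an intron, between 158661 and 199037 bp from the gene's start, and 3 were shared with all 3 replicates. The strongest, with a signal of 420.2, ranked above 97.9%, 97.1% and 97.1% of the ranked peaks of replicates 1, 2 and 3. It was 1439 bp from a Ten-a TSS, the closest of the 8, and the farthest was 12707 bp from one. The leucine-rich repeat gene haf had 2 peaks, and caps, a surface protein gene of the same kind, had 1 with a signal of 114.4 that was shared with no replicate. Ten-m, trn and Con had no conservative peak.

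Of the fasciclins and other adhesion proteins, 3 of 8 genes had 6 peaks: Fas3 had 3, side 2 and Nrt 1. The strongest of Fas3, a homophilic adhesion gene, had a signal of 287.4 and a partner in all 3 replicates. The peaks of side, whose product guides motor axons, and of Nrt, the neurotactin gene, were shared with replicate 1 alone. Fas1, Fas2, Nrg, Nlg1 and Nlg2 had no conservative peak. None of the 4 Dscam genes, which encode neuronal recognition proteins of the immunoglobulin superfamily, had a peak in any thresholded list. Their median length was 37.7 kb. Among other genes within 1.5-fold of the length of each, 47.2% (Dscam1), 53.9% (Dscam2), 53.7% (Dscam3) and 54.0% (Dscam4) had no conservative peak.

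Receptor tyrosine phosphatases had 6 peaks in 3 of 4 genes. Ptp10D had 4 intronic peaks, the strongest with a signal of 202.8 and shared with all 3 replicates. Lar (FBgn0000464), which controls motor axon targeting, had 1 promoter peak 141 bp from a TSS, with a signal of 147.4 and a partner in replicate 3. The best ranked peak of Lar stood above 84.5%, 83.8% and 92.2% of the ranked peaks of replicates 1, 2 and 3. Ptp99A had 1 promoter peak, 248 bp from an internal TSS, with a signal of 117.9 and no partner in any replicate. Ptp69D, the shortest of the 4 at 6.62 kb, had none.

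All 3 intracellular effectors had peaks, 8 in total. The guanine nucleotide exchange factor gene trio (FBgn0024277; 3L, 995982 to 1034875, minus strand, 38.9 kb), which activates Rac, had 3 conservative peaks and 3, 3 and 2 in replicates 1, 2 and 3. They had signals of 319.2, 297.2 and 259.0, and all 3 held a forkhead word. The peak of 297.2 was a promoter peak, 223 bp from an internal TSS. The tyrosine kinase gene Abl (FBgn0000017) had 4 peaks, and 3, 1 and 0 in the replicates. Its promoter peak, 185 bp from the start, had a signal of 117.7, and its strongest, in an intron, 190.0. The actin regulator gene ena had 1 intronic peak with a signal of 223.7, shared with replicates 1 and 2.

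**Figure D4:**
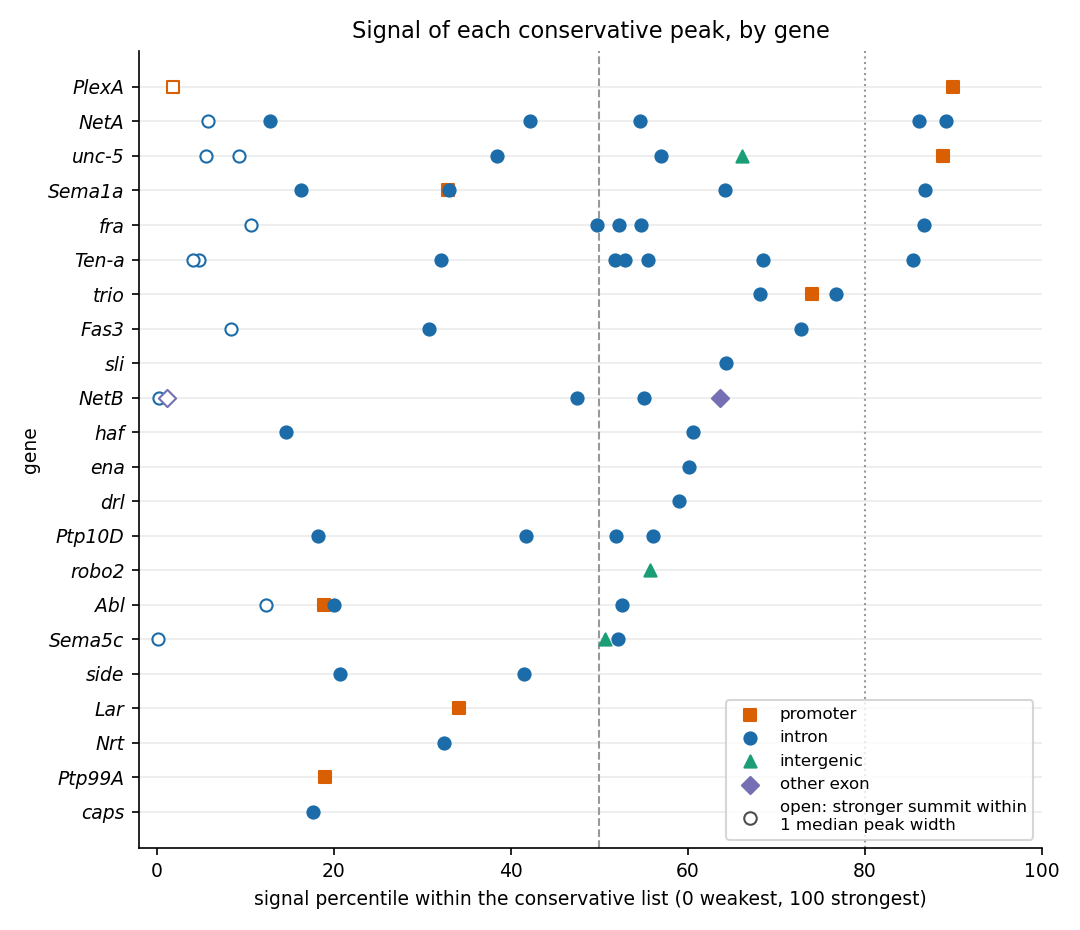
Signal percentile within the conservative list (x axis) of each of the 66 peaks, by gene, with genes in the order of their strongest peak; colour and shape give the feature, and open symbols have a stronger summit within 384 bp. The dashed line is the median of the list and the dotted line the start of its strongest 20%, which 7 peaks of 6 genes pass.

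In strength the members' peaks were spread over the list, with few at the top. Their median signal was 183.1, ranging from 2.19 to 513.9, and their median percentile was 50.2. Of the 66, 7 (10.6%) were in the strongest 20%, against 20.2% of other peaks and 18.2% of peaks of other long genes, and 1 was in the strongest 10%. No interval was taken for this share. Those 7 belonged to PlexA, unc-5, Sema1a, fra and Ten-a with 1 each and to NetA with 2. In the replicates' own lists the median percentile was 46.2 in replicate 1, 41.0 in replicate 2 and 25.8 in replicate 3, against 50.1, 50.2 and 50.3 for other peaks. The mean difference was -12.5 ± 10.7 percentile points (SD, n = 3; exact two-sided sign-flip permutation p = 0.25, the smallest that 3 replicates allow, and 0.333 after Benjamini-Hochberg adjustment over 4 measures), lower in 3 of 3 replicates. Without replicate 3 the mean difference was -6.54. Where peaks were counted by the nearest TSS within 10 kb only it was -15.3 ± 17.8 (SD, n = 3; exact sign-flip permutation p = 0.5), lower in 2 of 3 replicates and higher in replicate 1.

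Most of the peaks lay inside the genes, and few lay within 500 bp of a TSS. Introns held 53 of the 66 (80.3%), against 36.5% of all other peaks and 71.6% of the peaks of other genes of at least 20 kb. Promoters, taken as summits within 500 bp of a TSS, held 8 (12.1%), against 41.1% and 20.2%. In the replicates the promoter share of member peaks was 9.43%, 14.3% and 12%, against 38.9%, 44.5% and 46.8% of all other peaks. The difference averaged -31.5 ± 2.87 percentage points (SD, n = 3; exact two-sided sign-flip permutation p = 0.25, the smallest possible, and 0.333 adjusted) and was negative in 3 of 3 replicates. Against peaks of other long genes alone it averaged -8.88, and -19.2 where peaks were counted by the nearest TSS within 10 kb only. The median distance to the nearest TSS was 5333 bp for member peaks, 958.5 bp for all others and 2583.5 bp for peaks of other long genes. Since the rule counts every summit in a gene body, the intron share, the promoter share with its tested difference, and this distance partly reflect how the peaks were chosen.

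**Figure D5:**
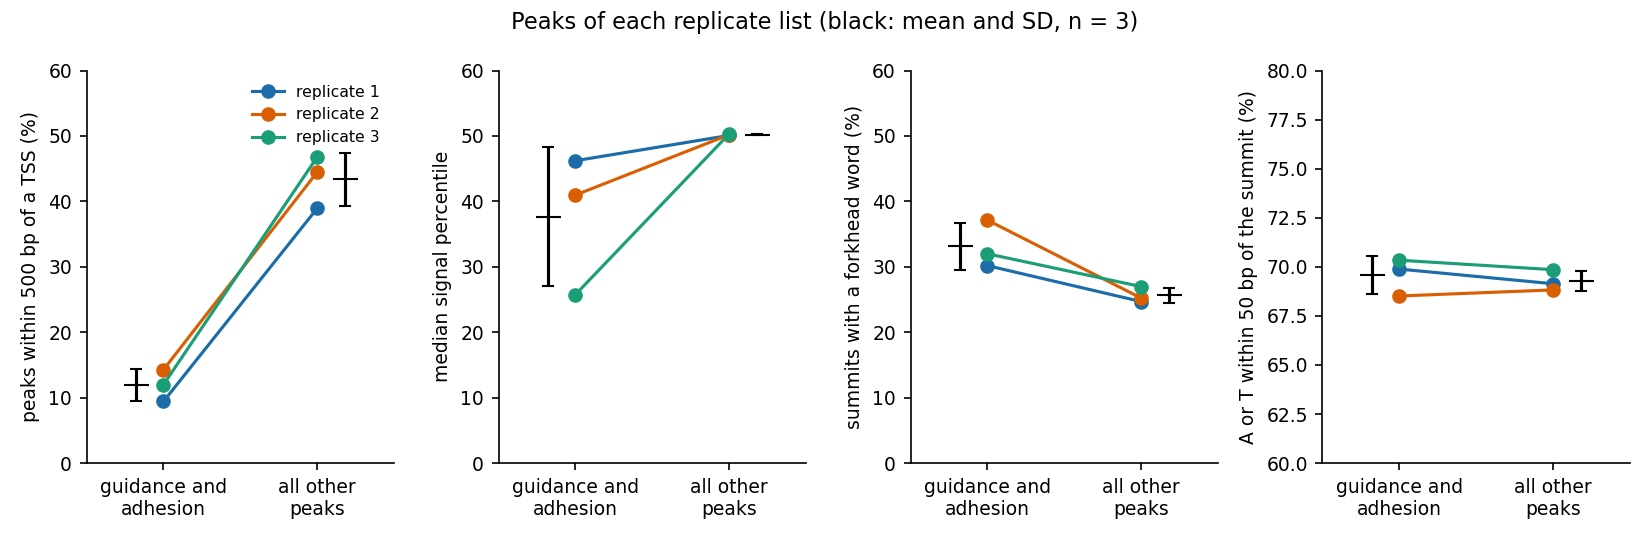
Values of member peaks and of all other peaks in the thresholded list of each replicate (coloured, joined), with the mean and SD over the 3 replicates in black: percent of peaks within 500 bp of a TSS, median signal percentile, percent of summits with a forkhead word within 50 bp, and percent A or T within 50 bp. The last axis starts at 60%. Promoter share and signal percentile are lower in all 3 replicates and the forkhead share within 50 bp is higher, while AT content changes sign between replicates.

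A forkhead word lay within 50 bp of the summit in 30.2%, 37.1% and 32.0% of member peaks in replicates 1, 2 and 3, against 24.7%, 25.2% and 27.0% of other peaks. The mean difference was 7.47 ± 3.84 percentage points (SD, n = 3; exact two-sided sign-flip permutation p = 0.25, the smallest possible, and 0.333 adjusted), higher in 3 of 3 replicates. With 100 bp on each side it was 11.9. With 25 bp it was 2.16 ± 3.52 (SD, n = 3; exact sign-flip permutation p = 0.5) and higher in 2 of 3 replicates, so the direction did not hold in replicate 1. The flank 500 bp to the left held a word in 17.0%, 20% and 28.0% of member peaks, against 13.5%, 13.9% and 13.2% of other peaks. In the conservative list, 16 of 66 summits (24.2%) held a word, beside 23.6% of other summits, 27.3% of the members' left flanks and 12.1% of their right flanks. The 2 flanks of the members thus stood on opposite sides of the summit value, while other peaks had 13.9% and 14.2%.

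Other words were searched on both strands of the same windows. GAGAG lay at 9 member summits (13.6%), against 9.08% of other summits and 11.4% of genome windows, and CACACA at 3 (4.55%), against 6.12% and 8.07%. Without the close neighbours of stronger peaks the GAGAG share was 9.26%, below that of genome windows. CAGGTAG lay at no member summit, which by the exact interval allows up to 5.44%, and at 0.335% of other summits and 0.534% of genome windows. The same held for TATCGATA, which lay at 0.95% of other summits and 0.275% of genome windows. AT content within 50 bp averaged 69.9%, 68.5% and 70.3% in replicates 1, 2 and 3 for members, and 69.1%, 68.8% and 69.9% for others. This difference of 0.306 ± 0.549 (SD, n = 3; exact two-sided sign-flip permutation p = 0.5, adjusted 0.5) was smaller than its spread. In the conservative list it was 68.2% at member summits and 58.0% in their left flanks.

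The X chromosome carried 23 of the 66 peaks (34.8%), against 18.9% of other peaks and 25.7% of peaks of other long genes. They came from 4 of the 6 X-linked members: NetA, NetB, Ten-a and Ptp10D. The share therefore rests on few genes.

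A summit inside a member's body was often nearer to the start of another gene. This held for 22 of the 66 peaks, in 9 members. The strongest were at NetA (495.5 and 430.2), nearest to sbm, an amino acid transporter gene outside NetA; at fra (439.4), nearest to CG33752, nested in fra; and at trio (319.2), nearest to CG9205, which partly overlaps trio. Which gene such a site acts on was not tested.

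Related genes that are not members were counted by the same rule, from 5 lists of 95 genes with a median length of 32.3 kb. Of these, 28 (29.5%) had a conservative peak, beside 17.2% of all genes and 49.5% of all genes of at least 20 kb. Of the 55 related genes of that length, 14 (25.5%, exact 95% binomial interval 14.7 to 39.0%) had one. The beat and side families had 4 of 21, led by beat-Ib (594.5) and beat-IIIc (307.0), and the dpr and DIP families had 5 of 32, led by DIP-alpha (371.4) and dpr20 (178.4). Of 4 cadherin genes only stan had a peak (165.0). Other adhesion and receptor genes had 11 of 24, led by kirre (656.2) and tutl (398.7), and kirre had 21 peaks, the highest count at any gene. Ligands, proteoglycans and intracellular effectors had 7 of 14, led by the glypican gene dlp (358.8) and the microtubule regulator gene chb (300.5). The count fell to 11 where only peaks shared with all 3 replicates were used, and to 12 without replicate 1, 14 without replicate 2 and 17 in the stronger 50% of the list.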

How the data were processed

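Peak lists of 3 biological replicates of croc-eGFP embryos were used, with the whole-series thresholded and conservative lists. The deposited lists are on dm6 and were made with IDR, the irreproducible discovery rate, per the file headers and listings; aligner and peak caller were not given in the sources used here. Signal in the deposited lists is the caller's own value per peak. The deposited score column scales the IDR (lowest in the conservative list 830, cap 1000). The deposited ranked lists also hold the −log10 of the global IDR; their signal gave each peak's percentile. No read counts were given, so depth is unknown, and intervals are exact 95% binomial intervals over peaks or genes, which are not replicates and cover counting error only. Whether the replicates came from separate collections is not stated beyond the word biological.

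Summits were assigned with the BDGP6.54 annotation on 6 arms, whose names and lengths fit the reference sequence. Promoter means within 500 bp of a TSS, shared means summits within 250 bp, and words were searched within 50 bp. The 4 measures were compared over replicates by an exact sign-flip permutation test. The members and lists were chosen with earlier results of these data known. Named genes are every member with a conservative peak, with full values for those with a promoter peak, 5 or more peaks, or a peak in the strongest 20%; of related genes, the 2 strongest of each list; and of other genes nearest to a summit in a member's body, the 3 genes with the strongest such peaks. Alternatives changed distances, windows, lists, sharing and assignment, and left out each replicate; peaks of genes of at least 20 kb, right flanks and genes of like length were chosen after seeing the data. Computations used Python 3.11.15, numpy 2.4.6, pandas 2.3.3 and scipy 1.17.1 and were tested on simulated data.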

Additional observations from a re-analysis of the deposited data

How the results depend on the processing

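Of 94 comparisons of a main result with an alternative, 81 kept their direction or stayed within 1.5 times or the replicate spread, and none reversed. A reversal could be recorded for the 4 measures compared over replicates only. The 81 include the number of roles with a peak, which was 8 under every alternative. This total thus does not measure stability either. Members with a conservative peak numbered 13 among peaks shared with all 3 replicates, and 13 to 16 with each replicate left out. Members with a peak by replicate averaged 13 by the nearest TSS only, 10 in the strongest 50% of each list, and 16 to 20 with each replicate left out. Peaks shared with all 3 made up 54.5% in the strongest 50%, and 31.8 to 59.1% with each replicate left out. Related genes numbered 17 in the strongest 50%, 11 among peaks shared with all 3, and 12 to 16 with each replicate left out. The number of members to be met at the rate of other genes of like length was 11.9 among peaks shared with all 3 replicates; fewer peaks are left there by construction. The sign-flip test cannot fall under 0.25 with 3 replicates, so its p says nothing about stability. Of 707 further comparisons, nearly all of peak counts of single members, 581 counted as unchanged, that is within 1.5 times or 0 both times. A gene without a conservative peak must stay at 0 where an alternative only removes peaks, so this total does not measure stability. No paired analysis was possible because the series has 1 group, so that no samples pair across groups; member and other peaks were compared within each replicate.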

Other observations

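The ranked lists, which also hold peaks under the threshold, had entries in most of the genes without a conservative peak. These lists held 24819, 17443 and 22972 peaks in replicates 1, 2 and 3, beside 13945 protein-coding genes. The share of all genes with a ranked peak was not taken, so the entries are no trait of the members. Dscam1 had 15, 4 and 7 ranked peaks in replicates 1, 2 and 3, the best of them above 77.5%, 36.2% and 83.8% of each list. Ten-m, the 114.8 kb relative of Ten-a, had 22, 12 and 27, the best above 74.2%, 74.6% and 76.0%. For dnt the best stood higher, above 90.8%, 86.2% and 92.7%. Robo1 had 2 in replicate 1, 2 in replicate 2 and 0 in replicate 3.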
